A study of Mus musculus with 19 samples.

Results

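Described here are 10 genes, receptors and a secreted protein of neutrophils together with the granulocyte growth factor Csf3, in mouse skin, chosen by name from the deposited count matrix: Csf3, Csf3r, Fpr1, Fpr2, Retnlg, Clec4d, Clec4e, Trem1, Trem3 and Hcar2. They are 10 of the 18521 genes in the file. All 10 were among the 15760 genes that passed the filter on low counts, and their expression is given for each mouse in 4 groups.

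Granulocyte colony-stimulating factor, encoded by Csf3, is released by epithelium, endothelium, fibroblasts and macrophages after injury or infection. Through its receptor, encoded by Csf3r, it drives the making and release of neutrophils in bone marrow. Neutrophils that reach a wound sense formylated peptides of bacteria and of damaged mitochondria through Fpr1 and Fpr2, and recognise glycolipids and stressed cells through the C-type lectins of the Clec4 cluster. The Trem receptors amplify such signals, and several of these receptors are also made by monocytes and macrophages.

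RNA was sequenced from skin pieces of 1 cm2 of 16 female mice, all with the genotype Ptch1+/- K14-CreER2 p53fl/fl, to ask what ablative fractional laser (AFL) and topical vismodegib do to skin with early basal cell carcinoma (BCC). In this strain a keratin 14 promoter drives a tamoxifen-dependent Cre recombinase that removes p53 in the cells where the promoter is active, and 1 Ptch1 allele is missing in every group, healthy mice included. AFL burns an array of narrow columns into the skin, and vismodegib blocks Smoothened, the signal transducer of the Hedgehog pathway. The AFL group was 3 induced mice (2, 7 and 11) that had 1 laser treatment (5% density, microbeams of 40 mJ), aged 228 to 326 days and 80 to 126 days after induction. The vismodegib group was 4 induced mice (1, 6, 9 and 12) that had 8 applications, aged 268 to 326 days and 109 to 137 days after induction. The BCC group was 4 induced and untreated mice (3, 4, 5 and 8), aged 278 to 320 days and 130 to 144 days after induction. The healthy group was 5 mice (10, 13, 14, 15 and 16) that were not induced, aged 128 to 137 days. Induction was by 3 injections of 300 µg tamoxifen and x-rays of 4 Gy, and skin was taken on day 4. No mice with a sham laser or a vehicle are among the samples used here, so the response to a treatment cannot be told apart from the response to its application.

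Library totals lay between 27185900 and 33556600 counts, and mice 11, 12 and 16 had a pair of libraries each, which were summed. Trp53 was lower in every induced mouse (31.5 to 44.9 CPM after AFL, 25.3 to 55.1 CPM after vismodegib and 23.6 to 36.3 CPM in BCC skin) than in healthy skin (94 to 143 CPM). CPM are counts scaled to a common library size. The keratinocyte markers Krt5 (3360 to 11200 CPM) and Krt14 (2580 to 31200 CPM) were high in all 16 mice. A value of 0 CPM allows up to 0.0434 to 0.159 CPM in a single mouse, which is what 3 counts amount to, and such limits cover counting error only. "Rose" and "fell" refer to an adjusted p under 0.05 in edgeR's quasi-likelihood test with Benjamini-Hochberg adjustment over all 15760 genes. These p-values measure the spread between mice.

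Skin after AFL had more RNA of 9 of the 10 genes than BCC skin, and skin after vismodegib more of 8. In AFL against BCC skin 9 genes rose and 6.1% of all genes tested rose, with a median log2 fold change of 6.2 over the 10 genes and -0.04 over all genes. In vismodegib-treated against BCC skin 8 genes rose and 8.03% of all genes rose, with a median of 4.23 over the 10 genes and 0.05 over all genes. Both comparisons use the same 4 BCC mice. AFL and BCC mice did not overlap in days since induction (80 to 126 and 130 to 144 days), so laser and time since induction cannot be told apart. For 9 genes, all but Hcar2, every AFL mouse lay above every BCC mouse, as did 11.5% of all genes. The same 9 genes lay above every BCC mouse in every vismodegib-treated mouse, as did 7.63% of all genes. Expression varied widely within each treated group, and AFL mouse 11 was the highest of the 16 mice for all 10 genes. In these bulk samples more cells of a type and more RNA per cell cannot be told apart.

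**Figure D1:**
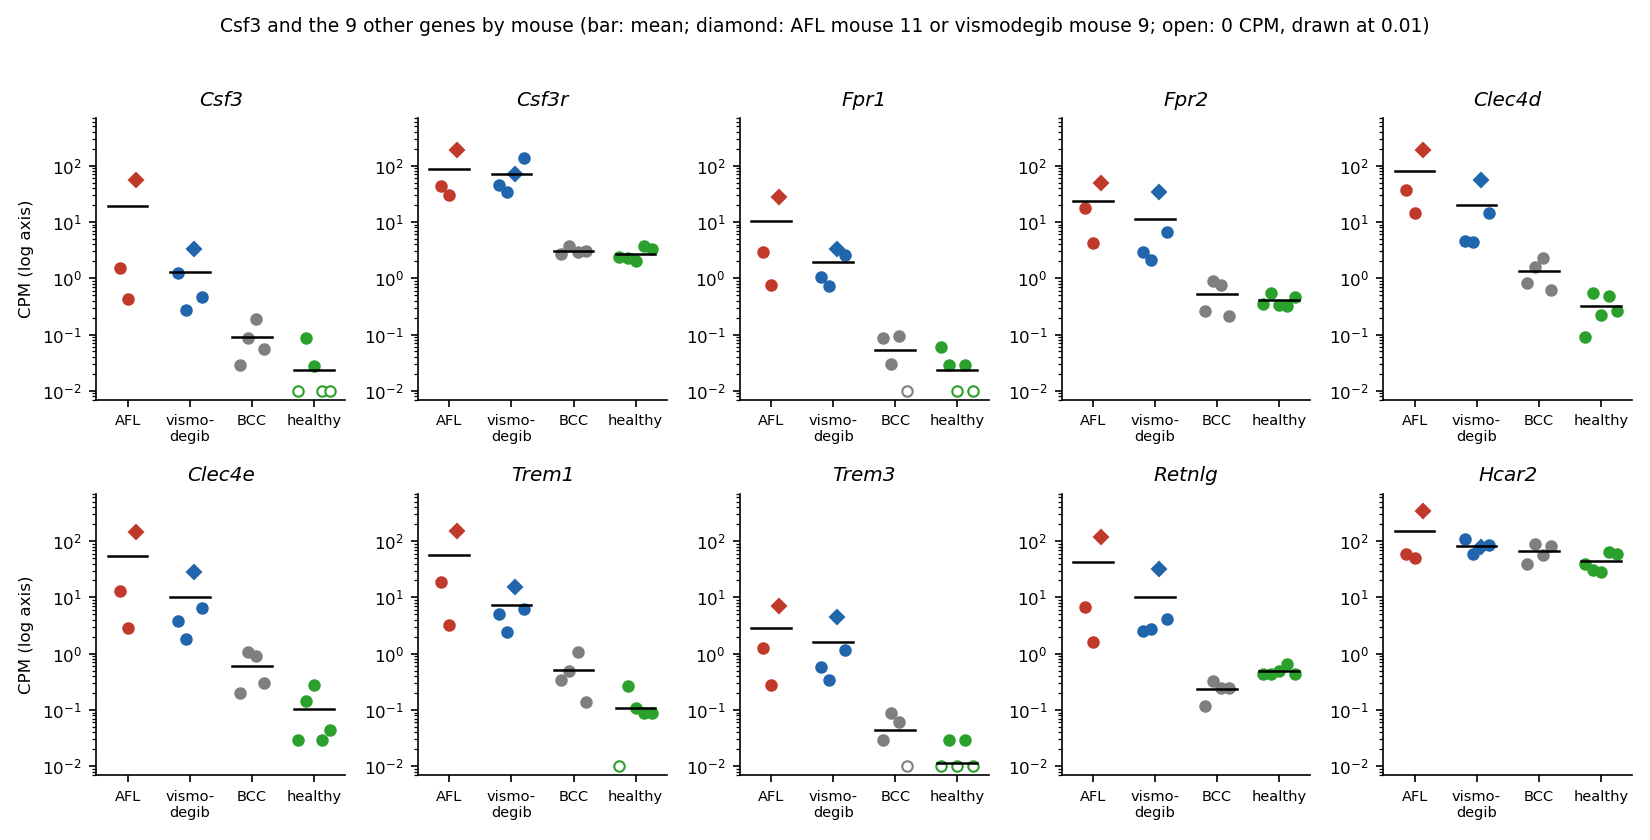
CPM (log axis, values of 0 drawn at 0.01) of the 10 genes in each mouse, by group, with diamonds for AFL mouse 11 and vismodegib mouse 9. For every gene but Hcar2, all AFL and all vismodegib mice lie above all BCC and healthy mice.

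Csf3, the growth factor itself, was close to its detection limit in untreated skin. It measured 1.52, 0.427 and 54.6 CPM in AFL mice 2, 7 and 11, and 1.23, 0.274, 3.29 and 0.472 CPM in vismodegib mice 1, 6, 9 and 12. BCC mice 3, 4, 5 and 8 had 0.029, 0.0882, 0.187 and 0.0545 CPM, and healthy mice at most 0.0875 CPM, with 3 of the 5 at 0. Every treated mouse was above every untreated mouse, and mouse 11 alone was 128-fold above the lowest AFL mouse. Csf3 rose after AFL by a log2 fold change of 7.69 ± 1.5 against BCC (SE, edgeR adjusted p = 0.0041), the fourth largest of all genes tested. Without mouse 11 the log2 fold change was 3.37 and no longer passed the test. After vismodegib the log2 fold change against BCC was 3.81 ± 1.35 and missed the threshold (edgeR adjusted p = 0.0625). It passed without vismodegib mouse 6 (4.15), AFL mouse 7 (3.81) or AFL mouse 11 (3.74). The pair of libraries of mouse 11 read 74.4 and 36.5 CPM, and both were above all other mice. The pair of vismodegib mouse 12 read 0.734 and 0.187 CPM (24 and 6 counts), the lower of which was no higher than BCC mouse 5.

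Csf3r, the receptor for this growth factor and a gene of neutrophils and their precursors, had the smallest ratio of highest to lowest mouse among the 9 genes that rose after AFL, in the AFL, vismodegib and BCC groups (6.18, 3.94 and 1.42) though not in healthy mice. It measured 43, 30.2 and 187 CPM in AFL mice 2, 7 and 11, and 45.6, 34.7, 70.7 and 137 CPM in vismodegib mice 1, 6, 9 and 12. BCC mice had 2.66, 3.79, 2.95 and 3.05 CPM, and healthy mice 2.37, 2.3, 2.01, 3.68 and 3.3 CPM. The lowest treated mouse was thus well above the highest untreated one, and the highest vismodegib mouse was mouse 12 and not mouse 9. Csf3r rose by a log2 fold change of 4.8 ± 0.59 after AFL against BCC (SE, edgeR adjusted p = 9.86e-05) and by 4.53 ± 0.57 after vismodegib against BCC (edgeR adjusted p = 0.000276). Without mouse 11 the AFL value was 3.52 and still passed the test. The promoter of Csf3r is shown because its myeloid expression is classically tied to PU.1 and C/EBP factors. It spans 250 bases before to 50 bases after the start of the gene, on GRCm38.p6 at chr4:126024409-126024708, plus strand, from RefSeq. Capitals mark a PU.1 core (GAGGAAG, either strand), which 13.6% of 32851 mouse promoters of this length hold. No C/EBP half-site pair (TTNNGNAA, either strand) is in this window.
Csf3r: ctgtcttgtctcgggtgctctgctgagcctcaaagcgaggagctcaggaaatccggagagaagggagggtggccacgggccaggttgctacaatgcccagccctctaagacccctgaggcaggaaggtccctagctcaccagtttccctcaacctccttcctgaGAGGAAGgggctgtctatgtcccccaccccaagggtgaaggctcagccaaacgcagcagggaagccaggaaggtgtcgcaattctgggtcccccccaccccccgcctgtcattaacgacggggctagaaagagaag

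The formyl peptide receptors Fpr1 and Fpr2, which guide neutrophils to bacterial and mitochondrial peptides, both rose after both treatments. Fpr1 measured 2.89, 0.762 and 28.1 CPM in AFL mice 2, 7 and 11, and 1.06, 0.73, 3.29 and 2.58 CPM in vismodegib mice 1, 6, 9 and 12. In BCC mice it was 0.0869, 0.0294, 0.0933 and 0 CPM, and in healthy mice 0 to 0.0591 CPM. Every treated mouse was far above every untreated one, which held a few reads at most. Its log2 fold change was 7.6 ± 1.21 after AFL against BCC (SE, edgeR adjusted p = 0.000781), the sixth largest of all genes. It was 5.01 without mouse 11 and still passed the test. After vismodegib against BCC it was 5.13 ± 1.12 (edgeR adjusted p = 0.00675).

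Fpr2, which also binds lipid and protein ligands of the host, measured 17.6, 4.24 and 48.7 CPM in AFL mice 2, 7 and 11, and 2.94, 2.1, 33.9 and 6.55 CPM in vismodegib mice 1, 6, 9 and 12. BCC mice had 0.261, 0.882, 0.746 and 0.218 CPM, and healthy mice 0.318 to 0.554 CPM. All treated mice were above all untreated mice, and vismodegib mouse 9 reached a level between those of AFL mice 2 and 11. Against BCC the log2 fold change of Fpr2 was 5.48 ± 0.97 after AFL (SE, edgeR adjusted p = 0.00199) and 4.42 ± 0.92 after vismodegib (edgeR adjusted p = 0.00489). Without vismodegib mouse 9 the vismodegib value was 2.9 and still passed the test. Fpr1 and Fpr2 lie head to head, with starts 3885 bases apart, and their promoters are shown because the genes rose together. They lie on GRCm38.p6 at chr17:17883890-17884189 (minus strand) and chr17:17887574-17887873 (plus strand), from RefSeq, and capitals mark the C/EBP pattern TTNNGNAA on either strand. Each holds 3 matches.
Fpr1: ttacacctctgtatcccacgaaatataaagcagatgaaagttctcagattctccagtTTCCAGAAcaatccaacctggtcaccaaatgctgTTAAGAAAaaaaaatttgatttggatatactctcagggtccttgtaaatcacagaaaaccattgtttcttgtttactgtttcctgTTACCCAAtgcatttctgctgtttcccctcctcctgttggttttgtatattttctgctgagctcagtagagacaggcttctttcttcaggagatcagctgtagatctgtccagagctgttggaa
Fpr2: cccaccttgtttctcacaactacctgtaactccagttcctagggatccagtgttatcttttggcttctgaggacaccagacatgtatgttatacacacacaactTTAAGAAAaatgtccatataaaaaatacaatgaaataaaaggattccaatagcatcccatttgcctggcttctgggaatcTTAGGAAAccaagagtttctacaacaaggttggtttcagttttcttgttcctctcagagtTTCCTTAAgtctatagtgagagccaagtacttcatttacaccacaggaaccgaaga

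Clec4d, a C-type lectin that signals through the Fc receptor gamma chain, and its partner Clec4e (Mincle), which binds mycobacterial glycolipid and a protein released by dead cells, also rose after both treatments. Clec4d measured 36.9, 14.7 and 192 CPM in AFL mice 2, 7 and 11, and 4.58, 4.47, 56.3 and 14.4 CPM in vismodegib mice 1, 6, 9 and 12. BCC mice had 0.84, 1.56, 2.27 and 0.627 CPM, and healthy mice 0.0887, 0.554, 0.221, 0.492 and 0.26 CPM. The treated groups overlapped each other, both lay above BCC skin, and BCC skin lay above healthy skin without overlap. The log2 fold change of Clec4d against BCC was 5.94 ± 1.04 after AFL (SE, edgeR adjusted p = 0.00189) and 3.91 ± 0.93 after vismodegib (edgeR adjusted p = 0.0118). Without mouse 9 the vismodegib value was 2.59 and still passed the test.

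Clec4e measured 13.1, 2.87 and 145 CPM in AFL mice 2, 7 and 11, and 3.83, 1.86, 28.5 and 6.55 CPM in vismodegib mice 1, 6, 9 and 12. BCC mice had 0.203, 1.06, 0.902 and 0.3 CPM, and healthy mice 0.0289 to 0.276 CPM. The spread was wide, with a 50.7-fold range within the AFL group, but no treated mouse overlapped a BCC mouse. Set against BCC, the log2 fold change of Clec4e was 6.45 ± 1.28 after AFL (SE, edgeR adjusted p = 0.00489) and 4.04 ± 1.14 after vismodegib (edgeR adjusted p = 0.0264). Neither call was stable. The AFL value was 3.64 without mouse 11, and the vismodegib value was 2.76 without mouse 9, 4.28 without BCC mouse 5 and 3.72 without BCC mouse 8, and none of these passed the test. The 2 lectin genes lie in one cluster, with starts 27764 bases apart, and their promoters are shown because the pair is reported to be expressed as a complex. They lie on GRCm38.p6 at chr6:123261857-123262156 (plus strand) and chr6:123289822-123290121 (minus strand), from RefSeq, and capitals mark TTNNGNAA on either strand and, near the 5′ end of Clec4d, the PU.1 core GAGGAAG on the minus strand.
Clec4d: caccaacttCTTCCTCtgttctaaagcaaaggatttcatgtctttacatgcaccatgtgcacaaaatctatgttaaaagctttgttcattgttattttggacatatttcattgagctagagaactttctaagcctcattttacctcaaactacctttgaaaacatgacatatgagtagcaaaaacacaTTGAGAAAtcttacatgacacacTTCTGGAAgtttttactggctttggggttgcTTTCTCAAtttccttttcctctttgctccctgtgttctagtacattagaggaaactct
Clec4e: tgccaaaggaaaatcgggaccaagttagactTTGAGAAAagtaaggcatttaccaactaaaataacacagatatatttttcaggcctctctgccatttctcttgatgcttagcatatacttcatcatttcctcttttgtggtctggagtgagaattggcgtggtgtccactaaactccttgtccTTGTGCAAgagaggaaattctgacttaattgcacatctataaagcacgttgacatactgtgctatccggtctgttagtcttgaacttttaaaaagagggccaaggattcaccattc

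The C/EBP pattern was present in 6 of the 7 promoters that matched by symbol (these 5, Retnlg and Trem1) and in 40.7% of all 32851 promoters, and the PU.1 core in 2 of the 7. An AP-1 site (TGANTCA) was found in 0 of the 7 and in 7.81% of all and a kappa B site in 0 of the 7 and in 0.411% of all. The promoters of Csf3, Trem3 and Hcar2 were not in the table. A match describes letters in these windows and is no measurement of binding.

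Trem1 and Trem3, receptors that signal through the adaptor DAP12 and amplify inflammation in neutrophils and monocytes, rose after both treatments. Trem1 measured 19, 3.23 and 151 CPM in AFL mice 2, 7 and 11, and 5.05, 2.47, 15.3 and 6.19 CPM in vismodegib mice 1, 6, 9 and 12. BCC mice had 0.348, 0.5, 1.09 and 0.136 CPM, and healthy mice 0 to 0.262 CPM. Again no treated mouse overlapped an untreated one. The log2 fold change of Trem1 against BCC was 6.8 ± 1.14 after AFL (SE, edgeR adjusted p = 0.00137) and 3.81 ± 1 after vismodegib (edgeR adjusted p = 0.0188). The AFL value was 4.37 without mouse 11 and still passed. The vismodegib call was lost without vismodegib mouse 9 (3.17), BCC mouse 4 (3.79) or BCC mouse 8 (3.41).

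Trem3, which has no functional human counterpart, had the lowest mean level per kilobase of the 10 genes after AFL. It measured 1.24, 0.274 and 6.9 CPM in AFL mice 2, 7 and 11, and 0.581, 0.335, 4.41 and 1.18 CPM in vismodegib mice 1, 6, 9 and 12. BCC mice had 0.029, 0.0882, 0.0622 and 0 CPM, and healthy mice 0 to 0.0292 CPM. The levels in untreated skin are those of single reads. The log2 fold change against BCC was 5.9 ± 1.19 after AFL (SE, edgeR adjusted p = 0.00507) and 5.08 ± 1.15 after vismodegib (edgeR adjusted p = 0.00853). Without mouse 11 the AFL value was 3.95 and no longer passed the test.

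Retnlg, a resistin-like protein of mouse neutrophils and bone marrow, measured 6.75, 1.59 and 117 CPM in AFL mice 2, 7 and 11, and 2.53, 2.74, 31.5 and 4.13 CPM in vismodegib mice 1, 6, 9 and 12. BCC mice had 0.116, 0.323, 0.249 and 0.245 CPM, and healthy mice 0.443, 0.437, 0.497, 0.666 and 0.434 CPM. All treated mice were highest, and here BCC skin lay below healthy skin without overlap. Against BCC, Retnlg had a log2 fold change of 7.46 ± 1.33 after AFL (SE, edgeR adjusted p = 0.00221) and 5.43 ± 1.22 after vismodegib (edgeR adjusted p = 0.00826). It was 4.1 without AFL mouse 11 and 3.76 without vismodegib mouse 9, and both still passed the test.

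Hcar2, the receptor for nicotinic acid and beta-hydroxybutyrate, is found on neutrophils and macrophages but also on fat cells and keratinocytes, and it did not follow the other 9 genes. It measured 58, 50.7 and 347 CPM in AFL mice 2, 7 and 11, and 111, 58.3, 80 and 85 CPM in vismodegib mice 1, 6, 9 and 12. BCC mice had 39.1, 89.5, 56.9 and 82.4 CPM, and healthy mice 39.3, 30.1, 28.4, 64 and 58 CPM. AFL mice 2 and 7 lay within the range of BCC mice, and mouse 11 alone stood above it. The log2 fold change against BCC was 1.18 ± 0.54 after AFL (SE, edgeR adjusted p = 0.223) and 0.32 ± 0.5 after vismodegib (edgeR adjusted p = 0.701). Without mouse 11 the AFL value was -0.33.

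**Figure D2:**
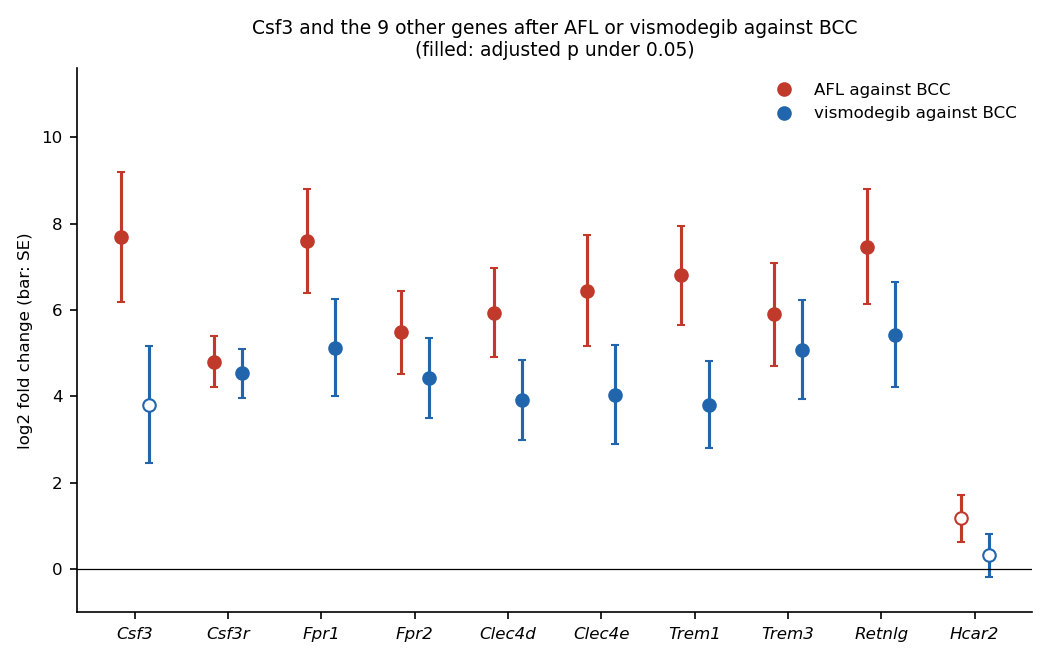
Log2 fold change (with its SE) of each of the 10 genes in AFL against BCC and in vismodegib against BCC, with open symbols for values that did not pass the test. The AFL values run from 1.18 for Hcar2 to 7.69 for Csf3, and the vismodegib values from 0.32 for Hcar2 to 5.43 for Retnlg.

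The order of mice was much the same from gene to gene. AFL mouse 11 was highest and AFL mouse 7 lowest of the AFL mice for all 10 genes. Vismodegib mouse 9 was the highest vismodegib mouse for 8 genes and second of all 16 mice for 7. Summed over the 9 genes other than Hcar2, the level was 142, 58.2 and 930 CPM in AFL mice 2, 7 and 11, and 67.4, 49.6, 247 and 179 CPM in vismodegib mice 1, 6, 9 and 12. It was 4.58 to 8.55 CPM in BCC mice and 3.34 to 5.33 CPM in healthy mice. Without mouse 11, 6 of the 10 genes rose in AFL against BCC, as did 3.6% of all genes in that fit. With AFL mouse 11 and vismodegib mouse 9 both left out, all 9 genes rose in AFL against BCC, as did 4.81% of all genes. That fit was added after the data were seen, and it leaves out the mice with the highest sums of the treated groups. Mouse 9 is in neither group of this comparison, and leaving it out changes the spread estimated over all mice. The count of 9 therefore does not show that the calls hold without mouse 11.

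The make-up of the set differed between mice as well as its total. Relative to Csf3r in the same mouse, Clec4d was 85.9%, 48.6% and 103% in AFL mice 2, 7 and 11, and 10%, 12.9%, 79.6% and 10.5% in vismodegib mice 1, 6, 9 and 12, in CPM. Retnlg was 15.7%, 5.25% and 62.5% of Csf3r in the AFL mice, and 5.54%, 7.9%, 44.6% and 3.03% in the vismodegib mice. AFL mouse 11 and vismodegib mouse 9 thus had the highest shares of their groups for both genes, while vismodegib mouse 12, the highest of its group for Csf3r, did not. Not every gene followed this order, with Fpr2 at 40.8%, 14% and 26.1% of Csf3r in AFL mice 2, 7 and 11, and Hcar2 at 244%, 168%, 113% and 62.3% in vismodegib mice 1, 6, 9 and 12. These percentages compare CPM of different genes without a length correction, and are read across mice only.

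Per kilobase of transcript (median length of coding transcripts in GENCODE M21), Hcar2 had the highest mean level of the 10 genes in all 4 groups, at 78.7 CPM per kb after AFL, 43.4 after vismodegib, 34.7 in BCC skin and 22.8 in healthy skin. After AFL it was followed by Retnlg (70.2 CPM per kb), Clec4d (61.5), Clec4e (33.1), Csf3r (26.1), Fpr2 (23.3), Trem1 (22.7), Csf3 (13.3), Fpr1 (7.99) and Trem3 (2.82). The SDs were near or above the mean for most genes, and differences between neighbours in this order were not tested. The AFL means rest largely on mouse 11, with Retnlg at 6.75, 1.59 and 117 CPM in AFL mice 2, 7 and 11. After vismodegib Csf3r came second (21.6 CPM per kb), before Retnlg (17.3) and Clec4d (15.1), and Csf3 was last (0.932).

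AFL and vismodegib were also set against each other. No gene of the 10 changed, against 9.15% of all genes tested in either direction, although the median log2 fold change over the 10 was 2.03 in AFL against vismodegib and -0.06 over all genes. At an unadjusted p under 0.05 there were 5, a count for which the share of all genes was not taken. DESeq2 called 2 of the 10 and limma voom 0, with 9.55% and 7.13% of all genes higher after AFL. The groups overlapped for all 10 genes, whereas 13% of all genes lay without overlap above vismodegib and 9.24% below. The values nearest to the threshold were Csf3 at 3.88 ± 1.23 (SE, edgeR adjusted p = 0.0589) and Trem1 at 3 ± 0.96 (edgeR adjusted p = 0.0625). For Csf3r the difference was 0.27 ± 0.52, with a 95% interval from -0.84 to 1.38. Single mice set both the size and the direction. Without AFL mouse 11 the value was -0.38 for Csf3, -0.96 for Csf3r and -1.26 for Retnlg, and 8 of the 10 were below 0. Without vismodegib mouse 9, Csf3 (4.82), Fpr2 (2.56), Retnlg (3.69) and Clec4d (3.34) passed the test. Without AFL mouse 7 Csf3 (4.45), Fpr1 (3.02) and Trem1 (3.55) did, and without AFL mouse 2 Csf3 (4.51) did. In these fits 6.35%, 5.16% and 4.19% of all genes were higher after AFL.

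**Figure D3:**
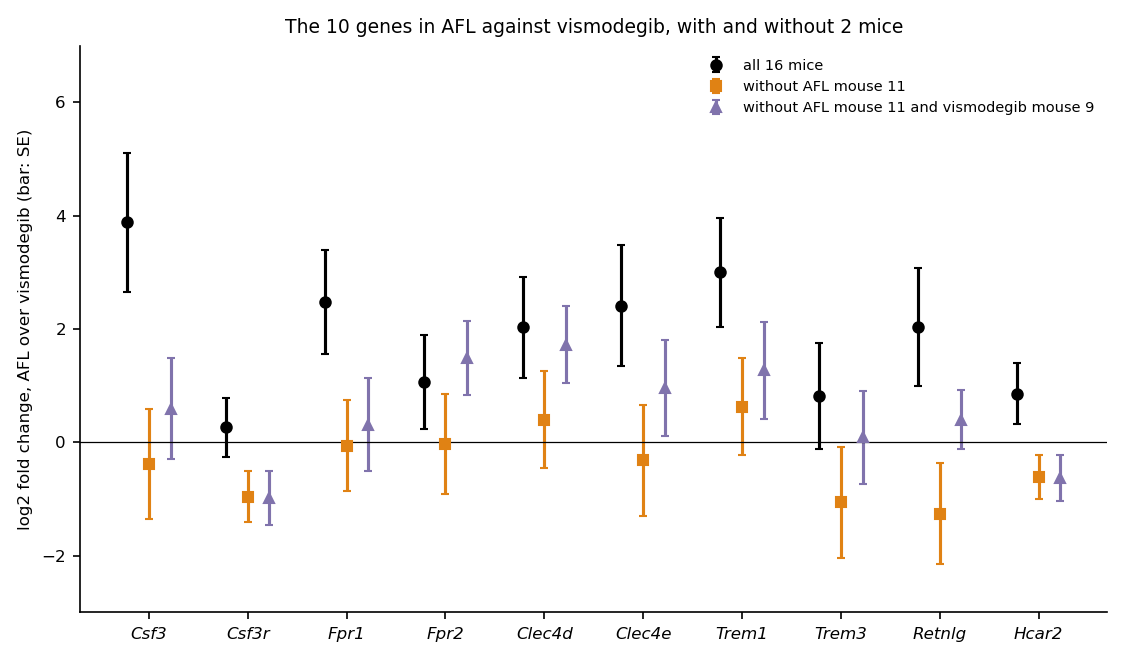
Log2 fold change (with its SE) of the 10 genes in AFL against vismodegib. The fits shown are with all mice, without AFL mouse 11, and with AFL mouse 11 and vismodegib mouse 9 both left out. With all mice no value passed the test, and without mouse 11 8 of the 10 values lie below 0.

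In BCC against healthy skin 0 of the 10 genes passed the edgeR test, against 2.82% of all genes tested, and DESeq2 and limma voom called 0. At an unadjusted p under 0.05 there were 3, and the share of all genes was not taken. Clec4d was above healthy skin in every BCC mouse, as were 5.18% of all genes, with a log2 fold change of 2.03 ± 0.88 (SE, edgeR adjusted p = 0.303). Retnlg was below healthy skin in every BCC mouse, as were 1.47% of all genes, with a log2 fold change of -1.07 ± 1.1 (edgeR adjusted p = 0.71). Clec4e (2.57 ± 1.18) and Trem1 (2.22 ± 1.04) had values of like size to Clec4d, on levels near 0.1 CPM in healthy skin. Induction and age cannot be told apart in this comparison, since the healthy mice were younger.

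Against healthy skin all 10 genes rose after AFL, as did 7.95% of all genes, and 9 rose after vismodegib, as did 7.57% of all genes. Hcar2 was the exception after vismodegib, with a log2 fold change of 0.93 ± 0.47 (SE, edgeR adjusted p = 0.191). After AFL it was 1.79 ± 0.51 (edgeR adjusted p = 0.0359), and 0.27 without mouse 11, where it did not pass the test. That call was also lost without healthy mouse 10 (1.75), 13 (1.68) or 14 (1.67). After vismodegib Csf3 (5.77) and Retnlg (4.35) lost their calls without mouse 9, at 4.8 and 2.66, and Csf3 also without healthy mouse 15 (5.52) or 16 (5.31). Trem3 held so few counts in healthy skin that a ratio of scaled counts is given, 398 after AFL (95% counting interval 110 to 3300) and 134 after vismodegib (36.5 to 1110). Of the AFL counts of Trem3, 39, 9 and 445 were in mice 2, 7 and 11, and without mouse 11 the fitted log2 fold change was 5.78 and still passed the test.

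Many other genes of neutrophils also rose, though not all with the spread of the set. Of 22 neutrophil surface and effector genes 16 rose after AFL and 15 after vismodegib against BCC, and none fell. Over all genes tested 6.1% rose after AFL and 8.03% after vismodegib, the background for this list and those that follow. In short lists, counts of 1 or 2 are not read as more than these shares. Ncf1, a subunit of the NADPH oxidase, rose by a log2 fold change of 2.86 ± 0.29 after AFL (SE, edgeR adjusted p = 3.05e-05) and by 1.04 ± 0.27 after vismodegib (edgeR adjusted p = 0.0164), a call lost without BCC mouse 4 (0.97). Ptafr, the receptor for platelet-activating factor, rose by 3.58 ± 0.4 after AFL, and its vismodegib value of 0.57 ± 0.36 did not pass. Across AFL mice Ncf1 ran from 63.8 to 79.8 CPM and Ptafr from 89.1 to 119 CPM, without the wide spread of the set. Ly6g, a defining surface marker of mouse neutrophils and chosen here after its values were seen, was 0 in every BCC and healthy mouse. It measured 0.0951, 0.0305 and 1.86 CPM in AFL mice 2, 7 and 11 and 0.205, 0.152, 1.7 and 0.534 CPM in vismodegib mice 1, 6, 9 and 12, so mice 11 and 9 again stood highest. The values of AFL mice 2 and 7 are no more than the 3 counts that a value of 0 allows. Ly6g in these mice thus cannot be told from that in untreated mice.

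The alarmins S100a8 and S100a9, major cytosolic proteins of neutrophils that stressed keratinocytes also make, were likewise looked at after their values were seen. S100a8 measured 63.7, 27.2 and 798 CPM in AFL mice 2, 7 and 11, 2450, 1080, 23300 and 1760 CPM in vismodegib mice 1, 6, 9 and 12, and 11.5, 64.7, 51.7 and 9.75 CPM in BCC mice. Every vismodegib mouse was above every AFL mouse, whereas AFL mouse 11 was the highest of all mice for each of the 10 genes. S100a8 rose after vismodegib by 7.7 ± 1.44 against BCC (SE, edgeR adjusted p = 0.00283), and its AFL value of 3.11 ± 1.21 did not pass (edgeR adjusted p = 0.146). Cxcr2, the receptor for the main neutrophil chemokines and also chosen after its values were seen, rose after vismodegib (4.27 ± 0.76) and after AFL (3.81 ± 0.77), where it was 1.49 and did not pass without mouse 11.

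Of 10 granule and maturation genes of marrow precursors 5 passed the low-count filter. Of these 0 rose after AFL in edgeR's test (0 also at an unadjusted p under 0.05, by DESeq2 and by voom, and 1 of the list with no low-count filter) and 1 after vismodegib, which was Camp (2.8 ± 0.91), the cathelicidin gene that keratinocytes also use and that was chosen after its values were seen. That call was lost without any one of 10 single mice, vismodegib mouse 9 (1.96) and BCC mouse 8 (2.39) among them. Cebpe, the factor of late granulocyte maturation, and Prtn3, a granule protease, had log2 fold changes of 0.81 ± 0.67 and 0.49 ± 0.6 after AFL, with neither past the test. Ngp, a granule protein gene removed by the filter and chosen after its values were seen, measured 0, 0.213 and 2.89 CPM in AFL mice 2, 7 and 11, 0.0342 to 0.372 CPM in vismodegib mice and 0 in every BCC mouse.

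Among 8 other colony-stimulating factors and receptors 5 rose after AFL, or 3 without AFL mouse 7 or 11, and 2 after vismodegib, which were Csf2rb and its paralogue Csf2rb2. Csf2rb, the common beta chain of the GM-CSF receptor, rose by 2.09 ± 0.39 after AFL (SE, edgeR adjusted p = 0.00306) and by 1.72 ± 0.37 after vismodegib (edgeR adjusted p = 0.00653), and reads of these near-identical copies may be split. Csf1r, the macrophage growth factor receptor, rose by 2.07 ± 0.31 after AFL, and was 0.42 ± 0.28 after vismodegib, which did not pass. Of 15 genes of signalling below the G-CSF receptor 2 rose after AFL, the kinase gene Lyn (2.71 ± 0.3) and the survival gene Mcl1 (0.66 ± 0.18), the second of which lost its call without any one of 7 single mice (0.59 without mouse 11). After vismodegib 2 of 15 rose, Lyn (1.18 ± 0.28) and Stat3, and the count ran between 1 and 4 as single mice were left out, with 4 without mouse 6.

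The inducers of Csf3 differed between the treatments. Of 13 inducers (12 cytokines and Nfkbiz, a nuclear regulator of NF-kappa B), 4 rose after AFL against BCC (Il1b, Tnf, Il6 and Osm), or 2 without AFL mouse 11, BCC mouse 3 or BCC mouse 8, and 11 rose after vismodegib, all but Tnf and Osm. Osm, a cytokine of neutrophils and macrophages, rose by 4.93 ± 0.66 after AFL (SE, edgeR adjusted p = 2e-04), and its vismodegib value of 1.69 ± 0.58 did not pass (edgeR adjusted p = 0.0549). It was 3.26 after AFL without mouse 11, and the vismodegib value passed without AFL mouse 7 (1.69) or 11 (1.65). Il1b, a master cytokine of acute inflammation, rose by 5.21 ± 1.02 after AFL (3.09 without mouse 11, still past the test) and by 3.25 ± 0.92 after vismodegib. The vismodegib call of Il1b was lost without vismodegib mouse 9 (2.14), BCC mouse 4 (3.35) or BCC mouse 8 (3.02). Set directly against each other, 2 of the 13 were higher after AFL than after vismodegib (Tnf and Osm) and 5 were lower (Il17a, Il17f, Il17c, Lif and Il1f6, which encodes IL-36 alpha). The first count was 1 without AFL mouse 11 or vismodegib mouse 6, 9 or 12. Over all genes tested, 9.15% changed in either direction in AFL against vismodegib.

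The IL-17 cytokines, made by gamma delta T cells and innate lymphocytes in skin and chosen here after their values were seen, were at trace level after AFL. Il17f measured 0.0634, 0.0915 and 0.062 CPM in AFL mice 2, 7 and 11, 7.04, 3.41, 35.4 and 6.81 CPM in vismodegib mice 1, 6, 9 and 12, and 0.0579 to 0.245 CPM in BCC mice. Vismodegib mice lay above all others, with mouse 9 highest. Il17f rose by 6.8 ± 0.86 after vismodegib against BCC (SE, edgeR adjusted p = 0.000278), while its AFL value was -0.67 ± 0.96 (edgeR adjusted p = 0.766). The log2 fold change in AFL against vismodegib was -7.46 ± 1.01 for Il17f (SE, edgeR adjusted p = 0.000371) and -6.64 ± 1.04 for Il17a (edgeR adjusted p = 0.00103). Il6, also chosen after its values were seen, rose by 4.1 ± 0.89 after vismodegib and by 3.7 ± 0.91 after AFL, a call lost without AFL mouse 11 (2.33), BCC mouse 3 (3.57) or BCC mouse 8 (3.54).

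Of 12 genes of neutrophil attraction (chemokines, receptors for C5a and leukotriene B4, leukotriene synthesis and annexin A1) 8 rose after AFL, or 4 without mouse 11, and 5 after vismodegib, with C5ar1, the complement C5a receptor, at 4 ± 0.41 after AFL and 1.67 ± 0.36 after vismodegib. The chemokine genes Cxcl1, Cxcl2 and Cxcl5, ligands of Cxcr2, were chosen after their values were seen. Cxcl2 measured 40.9, 8.08 and 567 CPM in AFL mice 2, 7 and 11, 1.81, 1.19, 14.2 and 1.67 CPM in vismodegib mice 1, 6, 9 and 12, and 0.319, 0.617, 3.36 and 0.327 CPM in BCC mice. The AFL mice overlapped the vismodegib mice only through mouse 9, and mouse 11 stood far above the rest. Cxcl2 rose by 7.48 ± 1.52 after AFL against BCC (SE, edgeR adjusted p = 0.00692), or 4.36 without mouse 11, and its vismodegib value was 2 ± 1.22 (edgeR adjusted p = 0.275). Cxcl1 and Cxcl5 rose after both treatments, by 4 ± 0.87 and 6.41 ± 1.34 after AFL and by 4.23 ± 0.85 and 6.32 ± 1.32 after vismodegib. Without mouse 11 the AFL values were 1.49 for Cxcl1 and 3.17 for Cxcl5, and neither passed the test.

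**Figure D4:**
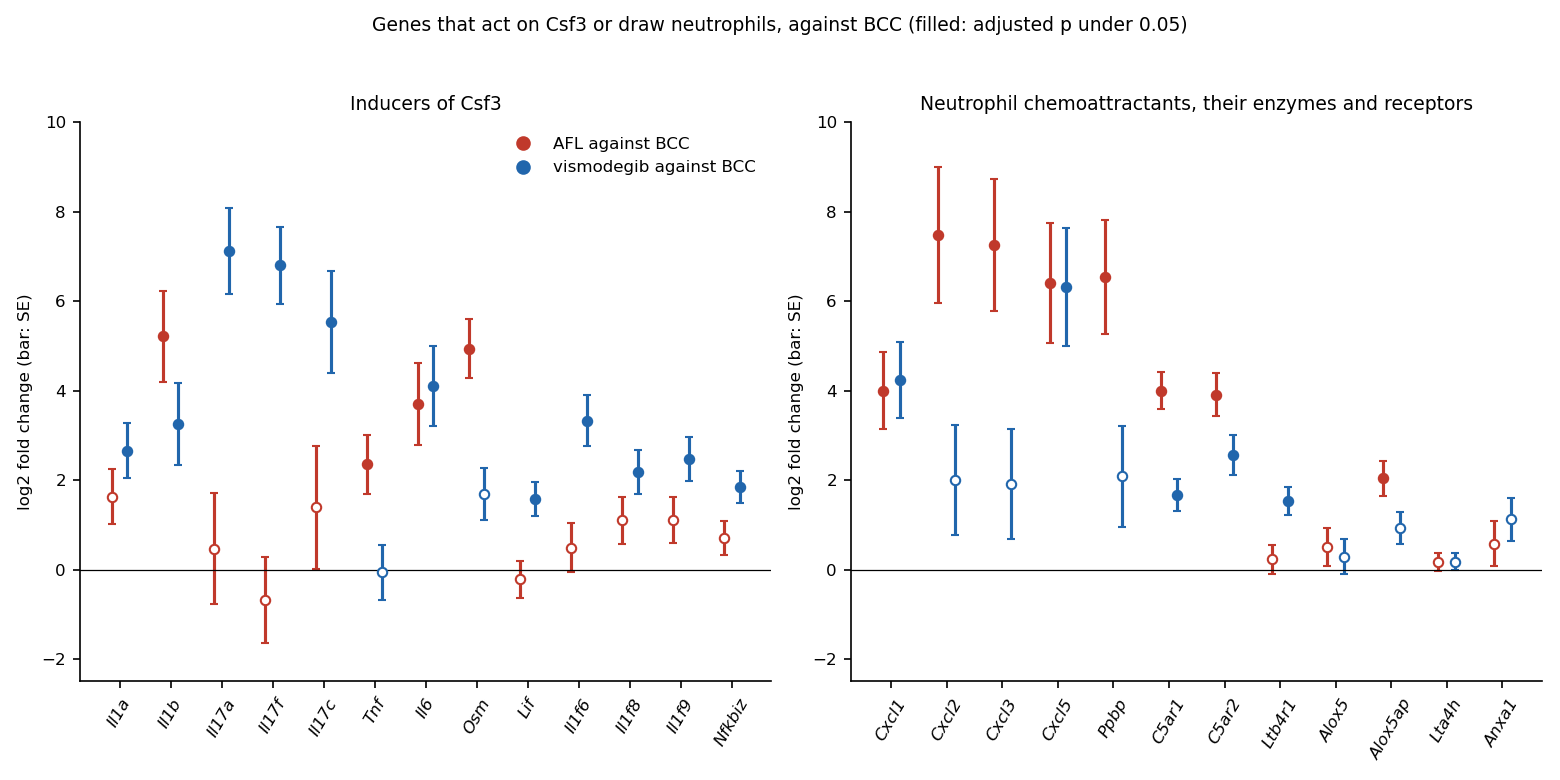
Log2 fold change (with its SE) of the inducers of Csf3 and of genes of neutrophil attraction in AFL against BCC and in vismodegib against BCC. Open symbols are values that did not pass the test. Il17f passed in vismodegib against BCC, and its value in AFL against BCC lies below 0.

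The relatives of the receptors rose less evenly. Of 11 other C-type lectins of myeloid and related cells 6 rose after AFL (3 without AFL mouse 11 or BCC mouse 8) and 3 after vismodegib (0 without vismodegib mouse 9 or BCC mouse 8, 1 without BCC mouse 5 and 5 without vismodegib mouse 6). Clec4a1 and Clec12a, lectins of monocytes and dendritic cells, rose by 2.69 ± 0.37 and 4.42 ± 0.63 after AFL, while their vismodegib values of 0.85 ± 0.33 and 0.79 ± 0.55 did not pass (Clec4a1 did without mouse 6, at 1.05). Of 4 other Trem genes 3 rose after AFL and 1, Treml2, after vismodegib (2.99 ± 0.48), or 2 without AFL mouse 7, AFL mouse 11 or vismodegib mouse 6. Trem2, a receptor of lipid-handling macrophages, rose by 4.65 ± 0.48 after AFL (SE, edgeR adjusted p = 3.05e-05), was 0.35 ± 0.41 after vismodegib, and rose by 4.3 ± 0.47 in AFL against vismodegib (edgeR adjusted p = 0.000145). Of 10 genes of the ITAM pathway, which carries the lectin and Trem signals, 4 rose after AFL and 4 after vismodegib, with the kinase Syk at 2.55 ± 0.27 after AFL and 0.89 ± 0.25 after vismodegib. The vismodegib count was 1 without BCC mouse 8 and 2 without vismodegib mouse 9 or 12 or BCC mouse 4 or 5, and Syk lost its vismodegib call without vismodegib mouse 12 (0.7) or BCC mouse 4 (0.71), 5 (0.88) or 8 (0.89). Of 3 genes tested among the other resistins and Hcar1 (Retn, Retnla and Hcar1, with Retnlb removed by the filter), 0 rose after either treatment (0 also at an unadjusted p under 0.05, by DESeq2 and by voom). Hcar1, the lactate receptor, was at 0.64 ± 0.53 and Retn, the resistin of fat cells, at -0.73 ± 0.74 after AFL against BCC.

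The 5 genes outside the set whose profile over the 16 mice was nearest to its mean profile were Il1b, Ccr1, Mrgpra2b, Mmp8 and Timp1, with root mean square differences of 0.43, 0.49, 0.68, 0.68 and 0.69 in log2 CPM. Since the mean profile is high in both treated groups, the choice itself fixes their direction against BCC, and their values are a description. Ccr1, a chemokine receptor of myeloid cells, was at 4.7 ± 0.83 (log2 fold change, SE) after AFL against BCC and at 3.8 ± 0.78 after vismodegib. Mmp8, the neutrophil collagenase, was at 4.94 ± 0.92 after AFL (2.85 without mouse 11) and at 3.62 ± 0.85 after vismodegib. Within the set the nearest to the mean profile was Trem3 (0.37) and the farthest Hcar2 (1.89), which ranked 671 among all genes tested.

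Some markers of other cells rose as well. Over all genes tested 6.1% rose after AFL and 8.03% after vismodegib against BCC. In AFL against vismodegib 9.15% changed in either direction. Counts of 1 or 2 in these short lists are not read as more than such shares. Of 16 monocyte and macrophage markers 15 rose after AFL and 9 after vismodegib against BCC, and 8 rose in AFL against vismodegib. Their summed level was 2290 to 3250 CPM in AFL mice, 580 to 1690 CPM in vismodegib mice and 290 to 589 CPM in BCC mice. All 3 red blood cell genes tested rose after AFL and 0 after vismodegib, with sums of 457 to 1390 CPM in AFL mice, 47 to 145 CPM in vismodegib mice and 64.6 to 189 CPM in BCC mice. The AFL count of red cell genes was 1 without mouse 2. Of 9 mast cell and basophil markers 3 rose after AFL (1 without AFL mouse 2, 7 or 11 or BCC mouse 4, 5 or 8) and 1 after vismodegib (3 without mouse 6). Of 6 endothelial markers 3 rose after AFL (1 without mouse 7) and 0 after vismodegib, and of 8 T and natural killer cell markers 1 rose after AFL and 0 after vismodegib. Of 7 Langerhans and dendritic cell markers 1 rose after each treatment and 1 fell after AFL, with 0 rising after vismodegib without vismodegib mouse 9 or 12 or BCC mouse 8. Of 7 keratinocyte markers 0 rose after AFL and 2 after vismodegib, of 6 fat cell markers 0 changed after either, and of 6 fibroblast markers 0 changed after AFL and 2 fell after vismodegib. Of these edgeR counts of 0, an unadjusted p under 0.05 gave 2 keratinocyte, 1 fat cell and 1 fibroblast marker higher after AFL and 1 endothelial marker higher after vismodegib, and DESeq2 and voom each called 1 keratinocyte marker after AFL and no other. Genes of growing hair also varied between mice, with a sum over 22 genes of 77.8 to 707 CPM in AFL mice, 98.8 to 23000 CPM in vismodegib mice, 152 to 18000 CPM in BCC mice and 1820 to 45400 CPM in healthy mice. Their median log2 fold change was -4.06 in AFL against BCC, 0.03 in vismodegib against BCC, -1.99 in BCC against healthy and -6.26 in AFL against healthy, and 1 of them passed the test in these comparisons, lower in AFL than in healthy skin. The part of hair growth and of these cells in the values of the 10 genes was not tested.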

How the data were processed

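Poly-A RNA of 19 libraries from 16 mice was sequenced with a directional kit, per the labels' protocols. The file holds RSEM expected counts per gene deposited by the authors, not normalised, made with Bowtie2 and RSEM against GRCm39 per the submitters' processing notes. Versions, the annotation and the strand setting used in counting are not stated there, so antisense reads may be mixed with those of a gene. The expected counts were rounded to whole numbers (3.42% were not whole, to a tolerance of 1e-06), and the pairs of libraries of mice 11, 12 and 16 were summed. The libraries of mouse 16 carry 2 ages, 128 and 135 days, and were joined on the mouse number.

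The low-count filter of edgeR 4.0.16 in R 4.3.3 (filterByExpr, by group) kept 15760 of 18521 genes. All mice entered 1 quasi-likelihood fit with TMM scaling, robust dispersions and the group as the only term, with 6 contrasts tested by its F test and Benjamini-Hochberg adjustment over all genes. The common dispersion was 0.178. CPM use the scaled library sizes, and profiles for likeness use log2 CPM with a prior count of 2. Where a group held 1 to 3 counts of a gene, a ratio of scaled counts with a 95% counting interval is given, and intervals and floors (3 counts) cover counting error only. The fit was also run on simulated counts, with the same change set for every AFL mouse. That run did not model a group led by 1 mouse, and its outcome is not given here.

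The 10 genes and the 21 gene lists (212 entries, 205 in the file, 4 of them by a RefSeq synonym, 192 tested) were chosen with earlier results of these data known. Of each list of related genes, the 2 with the smallest p in AFL against BCC are named, of each marker list of another cell type the 2 most abundant were set for naming (not all are reported), and 5 genes are named by likeness to the mean profile of the set. Other genes named were chosen after their values were seen. Each marker sum excludes the 10 genes.

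Alternatives were DESeq2 1.42.0, limma 3.58.1 with voom, other scalings and filters, all 19 libraries as replicates, the groups compared alone, covariates, a replicate block and each mouse left out. Leaving out AFL mouse 11 and vismodegib mouse 9 together, and counting the genes of the lists under each alternative, were added after seeing the data. Promoters (250 bases before to 50 after the start) came from RefSeq, GRCm38.p6, and no coordinates of that build were used with the counts.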

Additional observations from a re-analysis of the deposited data

Results flagged for a closer look

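In 3 of 30 groups of 4 or 5 mice checked, 1 mouse lay further from the rest than Dixon's 95% limit for the gap over the range. Chance gives about 1 in 20 for independent groups of normally distributed values. The groups checked here are different genes in the same mice, with much the same order of mice, so that rate need not hold. Fpr2 was 33.9 CPM in vismodegib mouse 9, with the next mouse at 6.55 CPM. Retnlg was 31.5 CPM in vismodegib mouse 9, with the next at 4.13 CPM. Retnlg was also 0.666 CPM in healthy mouse 15, with the next at 0.497 CPM. Groups of 3 mice, and so the AFL group with its high mouse 11, were not checked in this way.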

How the results depend on the processing

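Of 1821 values of the 10 genes under the alternatives, 1744 kept their direction and side of the threshold, 32 lost a call, 31 gained one and 14 changed sign. The total includes fits that leave out a mouse of neither group compared. It also includes BCC against healthy, where none of the 10 genes was called in the main fit. The total is thus no measure of how far a call rests on a single mouse. The cause of a change was not tested. With only 3 AFL mice, AFL mouse 11 weighs most.

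Without AFL mouse 11, the sign turned in AFL against BCC for Hcar2 (-0.33) and Camp (-0.48), and in AFL against vismodegib for Csf3 (-0.38), Csf3r (-0.96), Fpr1 (-0.06), Fpr2 (-0.03), Retnlg (-1.26), Clec4e (-0.32), Trem3 (-1.06) and Hcar2 (-0.61). With mice 11 and 9 both left out it turned for Hcar2 (-0.3) and Camp (-0.45) against BCC and for Csf3r (-0.98) and Hcar2 (-0.63) against vismodegib. In AFL against BCC Il17a was -0.13 without AFL mouse 2 and Il17f 0.01 without BCC mouse 8. Scaling by library size alone gave Hcar2 at -0.04 and Trem2 at -0.07 in vismodegib against BCC, and a hair covariate gave Fpr2 at -0.22 in BCC against healthy.

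Of the 10 genes, voom called 5 in vismodegib against BCC, where it found 5.85% of all genes higher after vismodegib. In AFL against vismodegib DESeq2 called 2, library size alone 2, all 19 libraries 6 and days since induction as a covariate 6. The shares of all genes higher after AFL in these fits were 9.55%, 8.67%, 11% and 4.22%. The fit on 19 libraries counts the paired libraries of a mouse as separate replicates. Leaving out single mice gave 0 to 4 of the 10 genes (1 without AFL mouse 2), with 4.13% to 7.84% of all genes higher after AFL. Over all genes, DESeq2 called 1977 in AFL against BCC, 911 in BCC against healthy, 2507 in AFL against vismodegib, 2479 in AFL against healthy and 3136 in vismodegib against healthy. All 19 libraries as replicates gave 2068, 2612, 3058 and 3425 in AFL against BCC, AFL against vismodegib, AFL against healthy and vismodegib against healthy. Fitting only the groups compared gave 984 in vismodegib against BCC, 642 in AFL against vismodegib, 2874 in AFL against healthy and 1121 in vismodegib against healthy. Days since induction as a covariate gave 715 in AFL against BCC and 1535 in vismodegib against BCC, and a hair covariate gave 983 in BCC against healthy. With mice 11 and 9 both left out, 1669 were called in vismodegib against BCC, 894 in AFL against vismodegib and 932 in vismodegib against healthy. Leaving out single mice gave 597 to 1698 in AFL against BCC, 1503 to 3418 in vismodegib against BCC (1762 without vismodegib mouse 9, 1679 without BCC mouse 4), 265 to 798 in BCC against healthy (285 and 278 without healthy mice 13 and 14), 732 to 1832 in AFL against vismodegib (847 without AFL mouse 11, 830 without vismodegib mouse 1), 799 to 1883 in AFL against healthy and 951 to 3490 in vismodegib against healthy (1062, 1099 and 993 without healthy mice 13, 14 and 15).

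Mice with the same replicate number were no more alike than others. Over 21 pairs with the same number the deviations correlated at -0.38 to 0.62 (median -0.17). Over 74 pairs with different numbers they correlated at -0.71 to 0.74 (median -0.03). A replicate block gave 1040 genes in vismodegib against healthy. In the block, Csf3 passed in vismodegib against BCC (3.73).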
